A study of Mus musculus with 15 samples.

Results

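The genes described are 44 genes of DNA replication and cell division, taken from a list of symbols and found by symbol in the table of skin libraries. All 44 were among its 54532 rows. They fall into 17 replication genes, 24 mitosis genes and 3 transcription factors of the cell cycle (E2f1, Foxm1 and Mybl2). All 44 passed a filter on low values, which 17646 genes passed.

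TRPV3, the subject of the series, is a warmth-sensing cation channel that keratinocytes express. Skin came from mice labelled wild type or Trpv3-knockout, and was either untreated or treated for 7 days with MC903 (calcipotriol), a vitamin D analogue that gives an inflammation like atopic dermatitis and thickens the epidermis. This gave 4 groups of 3 poly-A RNA libraries, 12 in all. Since the labels name no vehicle for untreated skin, MC903 and its vehicle or handling cannot be told apart. The series text speaks of conditional knockouts, whereas the sample labels give neither a Cre driver nor the cells that lose the gene, and give no age. Nothing in them says that the 3 libraries of a group come from separate animals, and p-values therefore cover only the spread among the libraries at hand, possibly a technical one.

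Cells copy their DNA in S phase, when the ring of MCM proteins unwinds it, PCNA clamps the polymerases to it and ribonucleotide reductase supplies the building blocks. They divide in mitosis, which is driven by the kinase CDK1 with cyclins A and B, shaped by Aurora and Polo-like kinases and ended by the anaphase-promoting complex. E2F factors switch on many replication genes before S phase, and MYBL2 and FOXM1 act later, with the MuvB complex, on mitosis genes through a short DNA element called CHR (cell cycle genes homology region). In skin the dividing cells are mostly those of the basal epidermis and of the hair matrix.

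Promoters of 5 members are printed because replication and mitosis genes differ in the elements they hold. The stretches are RefSeq sequence of build GRCm38.p6 (mm10), the 250 bases before the annotated start, 5′ to 3′ on the gene's strand, and none of the 5 overlaps its gene as the deposited table places it. Capitals mark an E2F word, a CHR element or a CCAAT box on either strand.
Mcm5 (chr8:75109259-75109508, plus strand): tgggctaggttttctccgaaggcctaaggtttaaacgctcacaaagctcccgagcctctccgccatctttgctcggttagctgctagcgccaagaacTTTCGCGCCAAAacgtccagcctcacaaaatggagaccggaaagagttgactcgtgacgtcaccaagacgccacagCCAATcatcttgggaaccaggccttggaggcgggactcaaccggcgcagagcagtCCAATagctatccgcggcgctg
Mcm6 (chr1:128359706-128359955, minus strand): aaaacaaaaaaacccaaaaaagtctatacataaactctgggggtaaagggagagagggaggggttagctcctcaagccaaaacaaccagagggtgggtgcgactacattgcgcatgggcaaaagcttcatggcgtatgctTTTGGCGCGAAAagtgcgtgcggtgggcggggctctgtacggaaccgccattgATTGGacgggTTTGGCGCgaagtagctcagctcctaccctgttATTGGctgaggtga
Mki67 (chr7:135716380-135716629, minus strand): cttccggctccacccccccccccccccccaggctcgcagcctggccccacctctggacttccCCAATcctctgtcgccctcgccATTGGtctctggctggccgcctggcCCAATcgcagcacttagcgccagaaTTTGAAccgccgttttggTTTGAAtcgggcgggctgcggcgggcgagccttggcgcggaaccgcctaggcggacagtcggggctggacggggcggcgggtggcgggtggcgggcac
Ccnb2 (chr9:70421555-70421804, minus strand): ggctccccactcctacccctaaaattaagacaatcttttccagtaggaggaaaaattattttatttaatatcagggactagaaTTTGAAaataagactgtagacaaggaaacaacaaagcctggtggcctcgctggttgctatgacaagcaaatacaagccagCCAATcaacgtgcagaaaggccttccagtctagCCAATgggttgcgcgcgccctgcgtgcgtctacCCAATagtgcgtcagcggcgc
Top2a (chr11:99024190-99024439, minus strand): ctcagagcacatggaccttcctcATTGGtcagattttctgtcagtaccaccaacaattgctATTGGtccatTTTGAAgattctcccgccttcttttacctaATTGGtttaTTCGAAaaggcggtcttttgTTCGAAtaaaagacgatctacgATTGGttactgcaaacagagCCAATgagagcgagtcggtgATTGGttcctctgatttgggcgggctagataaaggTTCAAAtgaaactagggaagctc
Mcm6, Mki67 and Ccnb2 are among the most abundant members of their class by the mean over the 12 libraries, and Mcm5 and Top2a were chosen after their values and sequences were seen. In Mcm5 an E2F word starts 153 bases before the gene start, with another on the opposite strand overlapping it at 149. Mcm6 holds such a pair at 110 and 106 and a further word at 47, and neither of these replication promoters holds a CHR element. Mki67 holds CHR elements at 116 and 98, Ccnb2 at 167, and Top2a at 179, 140, 120 and 23. None of these mitosis promoters holds an E2F word, and all 5 stretches hold CCAAT boxes.

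RefSeq promoters were found by symbol for 37 of the 44 members, 15 of replication, 20 of mitosis and 2 factors. Not matched were Gins2, Mcm4, Aurkb, Kif20a, Ccna2, Tpx2 and Foxm1. Windows of 300 bases, 250 before to 50 after the start, were searched on both strands. An E2F word was TTTGGCGC, TTTCGCGC, TTTGCCGC or TTTCCCGC, a CHR element was TTTGAA or TTCGAA, and a CCAAT box was CCAAT. An E2F word stood in 7 of 15 replication promoters (46.7%) and in 1 of 20 mitosis promoters (5%), that of Cdk1, against 4.18% of the promoters of 11839 tested genes and 2.6% of all 27025. CHR elements stood in 3 of 15 replication promoters (20%) and 16 of 20 mitosis promoters (80%), against 16.9% of tested genes and 21.7% of all. Counting only bases before the start, CHR elements stood in 8 of 20 mitosis promoters, 3 of 15 replication promoters and 15.1% of tested genes, and E2F words in 5 of 15 replication promoters, 1 of 20 mitosis promoters and 3.48% of tested genes. CCAAT boxes stood in 10 of 15 and 18 of 20, against 41.7% of tested genes. CHR and CCAAT stood together in 3 of 15 and 16 of 20, against 8.08% of tested genes. The windows of E2f1 and Mybl2 held none of these words. All 250 bases before the annotated start of E2f1 lay inside the deposited coordinates of the gene, so bases before those coordinates were not searched. Mcm7 and Uhrf1 had 2 windows each, and a match in either counted. The E2F words of these 2 genes stood in 1 of their windows only. The stretches of Cdc6 and Cdca8 and both stretches of Mcm7 also lay wholly inside their genes. So did 1 stretch of Uhrf1, while 16 bases of its other stretch lay inside. A match describes letters only, and a window without one says nothing of the factors that bind there.

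Depth was even, at 16869716 to 18485698 reads assigned to genes per library, and a member rested on 37 to 3054 reads in a library. Levels are FPKM (fragments scaled to the deposited gene length and to a factor per library). The factor was 0.917 to 0.964 times the assigned reads in treated and 1.06 to 1.11 in untreated wild type. In skin labelled knockout it was 0.984 to 1.02 treated and 1.04 to 1.07 untreated. Deposited lengths exceed the coding transcript in some members (Tk1, 5198 against 1440 bases) and not in others (Mcm4, 3589 in both). Levels of different genes can therefore be compared only roughly. Fold changes given as log2 are differences of log2(FPKM + 0.5), followed by the standard error (SE), and understate changes of low genes. A gene passed the test at a limma adjusted p below 0.05, adjusted over all genes tested. Trpv3 itself read 1.13 to 2.71 FPKM in untreated wild type skin and 2.62 to 3.64 in untreated skin labelled knockout, and 16.1 to 19 and 4.73 to 6.82 after MC903. It was thus lower in the libraries labelled knockout after MC903 and not in untreated skin, and directions between genotypes below rest on the labels. Untreated wild type replicate 3 stood apart from replicates 1 and 2 (chi-square of reads per degree of freedom 44.9 and 60.1, against 6.46 to 28.5 in the other pairs within a group).

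Summed levels of both classes were higher in every treated library than in any untreated one, and the mitosis sum moved further. The 17 replication genes together stood at 99.3, 105 and 85.3 FPKM in untreated wild type replicates 1, 2 and 3, and at 92.5, 101 and 98.5 in untreated skin labelled knockout. After MC903 they stood at 233, 200 and 206 in wild type and at 179, 187 and 163 in skin labelled knockout. The untreated genotypes overlapped, and every treated library labelled knockout lay below every treated wild type one.

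The 24 mitosis genes together stood at 62.9, 84.8 and 42.4 FPKM in untreated wild type and at 76.1, 87.6 and 67.3 in untreated skin labelled knockout. After MC903 they stood at 286, 249 and 271 in wild type and at 178, 195 and 172 in skin labelled knockout. The order of the groups was that of the replication sum, and untreated wild type replicate 3 was the lowest library.

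The replication sum divided by the mitosis sum was 1.58, 1.24 and 2.01 in untreated wild type and 0.813, 0.805 and 0.761 after MC903. In skin labelled knockout it was 1.22, 1.16 and 1.46 untreated and 1, 0.963 and 0.951 after MC903. The replication sum thus exceeded the mitosis sum in all 6 untreated libraries and lay below it in treated wild type. Treated libraries labelled knockout lay between. The classes differ in number of genes, and Pcna alone gave 29.1 to 37.1 FPKM of the replication sum in untreated libraries. The order of the sums there rests in part on this gene. The mean log2(FPKM + 0.5) of replication genes minus that of mitosis genes was 0.65, 0.37 and 0.87 in untreated wild type. After MC903 it was 0.01, -0.01 and -0.07. In skin labelled knockout it was 0.39, 0.32 and 0.55 untreated and 0.1, 0.04 and 0.06 after MC903. These sums and means describe the classes and carry no test. In whole skin more dividing cells and more RNA per dividing cell cannot be told apart.

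**Figure D1:**
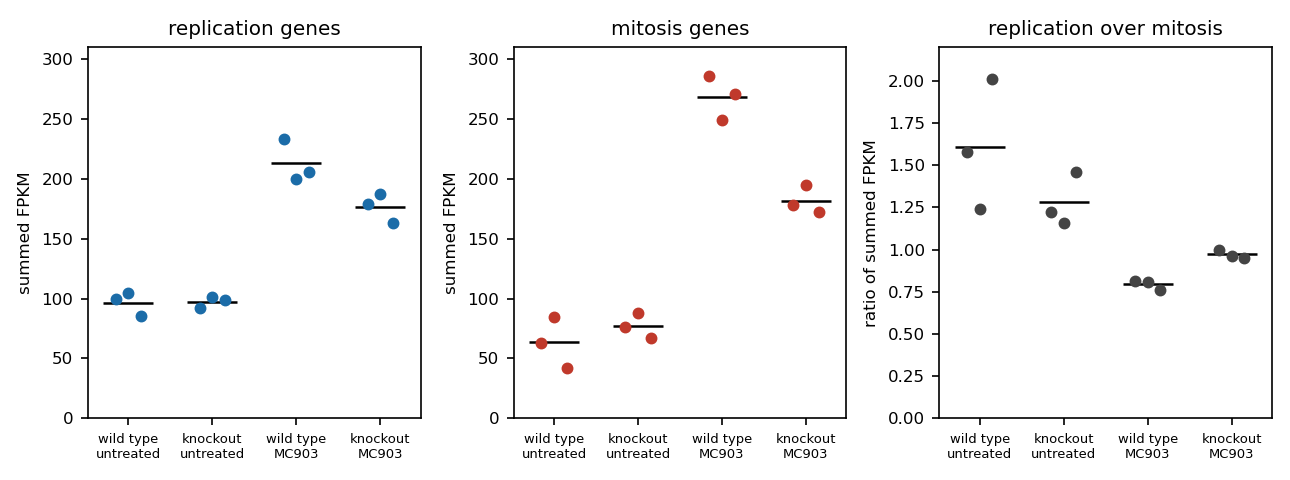
Summed FPKM of 17 replication genes (left) and of 24 mitosis genes (middle), and the ratio of the sums (right), in the 12 skin libraries by group. Points are libraries and black lines group means; treated wild type libraries lie at 200 to 233 FPKM for replication and 249 to 286 for mitosis, and their ratio of 0.761 to 0.813 is the lowest of the 4 groups.

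MC903 against untreated skin in wild type asked how the treatment moved these genes with the channel gene intact. Of the 44 members 43 rose and none fell, against 32.6% of all genes tested that rose, 30.3% that fell and 63% that changed either way. The members' median log2 fold change was 1.57, against 0.02 over all genes. Of the replication genes 16 of 17 rose, 8 of them by at least 1 on the log2(FPKM + 0.5) scale and 11 at least 2-fold by the ratio of mean FPKM, with a median of 1. All 24 mitosis genes rose, 21 of them at least 2-fold on either scale, with a median of 2.06, and all 3 factors rose. Gins2, a subunit of the replicative helicase, did not pass (0.15 ± 0.13, limma adjusted p = 0.34). Groups did not overlap in 42 members, against 33% of all genes with every treated library higher, and the exceptions were Gins2 and the spindle gene Nusap1. With libraries scaled to TPM the all-gene median became -0.4, and 26.7% of called genes were higher, against 51.8% as deposited. Under TPM 35 members rose and Mcm6, Pcna, Tyms, Cdc45, Cenpf, Kif23, Nusap1 and E2f1 no longer passed.

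Within the MCM ring the size of the response differed from gene to gene. Mcm5 read 3.41, 2.94 and 3.59 FPKM in untreated wild type and 25.5, 19.5 and 21 after MC903, 6.63-fold higher (2.55 ± 0.14, limma adjusted p = 7.9e-08). Mcm2, Mcm7 and Mcm3 rose by 1.32 ± 0.09, 1.28 ± 0.11 and 1.2 ± 0.12. Mcm6 and Mcm4, the most abundant of the ring in untreated skin and below Mcm5 and Mcm7 in treated wild type, had the smallest changes of the ring in wild type. Mcm6 went from 10, 11.1 and 8.54 to 18.3, 15.2 and 13.5 (0.64 ± 0.12, limma adjusted p = 0.00085). Mcm4 went from 9.53, 8.4 and 7.21 to 16.8, 15.2 and 14.7 (0.86 ± 0.11, limma adjusted p = 4.4e-05). No member of the ring overlapped between the groups, and differences between its genes were not tested.

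Pcna, the sliding clamp, was the most abundant member and changed little. It read 33.9, 37.1 and 31.3 in untreated wild type and 52.2, 40.2 and 46.2 after MC903, 1.36-fold higher (0.43 ± 0.1, limma adjusted p = 0.0038), and its sign turned when libraries were scaled to TPM (-0.04, limma adjusted p = 0.75). The lowest treated library lay just above the highest untreated one.

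Among genes that supply DNA precursors, Rrm2, the cell cycle regulated subunit of ribonucleotide reductase, rose 4.36-fold. It read 4.77, 5.49 and 3.74 untreated and 19.2, 20.9 and 20.9 after MC903 (2.03 ± 0.13, limma adjusted p = 2.6e-07). Its partner Rrm1 rose by 1 ± 0.09. Thymidine kinase Tk1 rose from 1.84, 2.57 and 1.6 to 10.9, 9.16 and 9.54 (2.07 ± 0.14, limma adjusted p = 3.6e-07) and thymidylate synthase Tyms by 0.71 ± 0.13. Rrm2 and Tk1 thus had changes near the median of the mitosis genes.

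Of the other replication genes, Uhrf1, which helps to copy DNA methylation, rose by 1.75 ± 0.14. The origin licensing factors Cdt1 and Cdc6 rose by 1.38 ± 0.13 and 0.97 ± 0.14. The helicase subunit Cdc45 rose by 0.62 ± 0.16, and Chaf1b, a subunit of the chaperone that loads histones on new DNA, by 0.91 ± 0.14.

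Mitosis genes rose by 0.58 to 2.82. The highest were Birc5 (survivin) at 2.82 ± 0.19, Ube2c, the ubiquitin-conjugating enzyme of the anaphase-promoting complex, at 2.81 ± 0.19, and the Polo-like kinase Plk1 at 2.7 ± 0.18. Cdca8 (borealin) followed at 2.45 ± 0.12. Survivin and borealin form the chromosomal passenger complex with Aurora B, which corrects faulty attachments of chromosomes to the spindle, and Aurkb rose by 2.05 ± 0.17.

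Cdc20, which activates the anaphase-promoting complex, had the highest mean of the mitosis genes over the 12 libraries, although Mki67 was above it in untreated wild type and in treated skin labelled knockout. It read 7.05, 7.8 and 5.18 untreated and 32.8, 28.9 and 26.4 after MC903 (2.07 ± 0.15, limma adjusted p = 7.3e-07). Ccnb2, a cyclin B, went from 3.51, 6.48 and 2.8 to 25.2, 18.2 and 20.7 (2.26 ± 0.23, limma adjusted p = 9.1e-06). Both genes stood far above their untreated range in every treated library. Ccnb1, Ccna2 and their kinase Cdk1 rose by 2.07 ± 0.18, 1.9 ± 0.16 and 2.21 ± 0.14.

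Mki67, which encodes the proliferation marker Ki-67, read 7.28, 10.1 and 3.44 untreated and 15.7, 15.5 and 17.2 after MC903 (1.28 ± 0.28, limma adjusted p = 0.0019). Its untreated libraries spread widely, with replicate 3 lowest, and the treated ones lay close together. Top2a, which untangles DNA, went from 4.22, 5.39 and 2.25 to 19.4, 17.3 and 18.1 (2.15 ± 0.22, limma adjusted p = 8.5e-06).

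Kinetochore genes spread widely. Cenpa, the centromeric histone, rose by 2.11 ± 0.13, the motor Cenpe by 1.63 ± 0.22 and Cenpf by 0.7 ± 0.2. The checkpoint genes Bub1 and Bub1b rose by 1.6 ± 0.2 and 1.31 ± 0.14. Among spindle genes Aurka and its activator Tpx2 rose by 2.24 ± 0.19 and 2.09 ± 0.19. The motors Kif11, Kif20a and Kif23 rose by 1.66 ± 0.24, 1.14 ± 0.17 and 0.6 ± 0.15, and Hmmr by 1.36 ± 0.25. Nusap1 had the smallest change, from 4.87, 6.14 and 2.65 to 6.76, 5.82 and 7.67 (0.58 ± 0.22, limma adjusted p = 0.036). Its untreated replicate 2 lay above treated replicate 2, and without untreated replicate 3 the change was 0.27 (limma adjusted p = 0.089).

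The 3 factors differed in size. Mybl2 read 0.521, 0.535 and 0.666 untreated and 4.69, 4.58 and 3.65 after MC903 (2.16 ± 0.14, limma adjusted p = 3.5e-07). Foxm1 rose from 1.66, 1.73 and 0.718 to 5.47, 4.68 and 4.11 (1.53 ± 0.22, limma adjusted p = 0.00011). E2f1 went from 2.01, 2.52 and 2.42 to 4.32, 3.39 and 3.42 (0.58 ± 0.11, limma adjusted p = 0.00078). Each stood higher in every treated wild type library than in any untreated one.

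**Figure D2:**
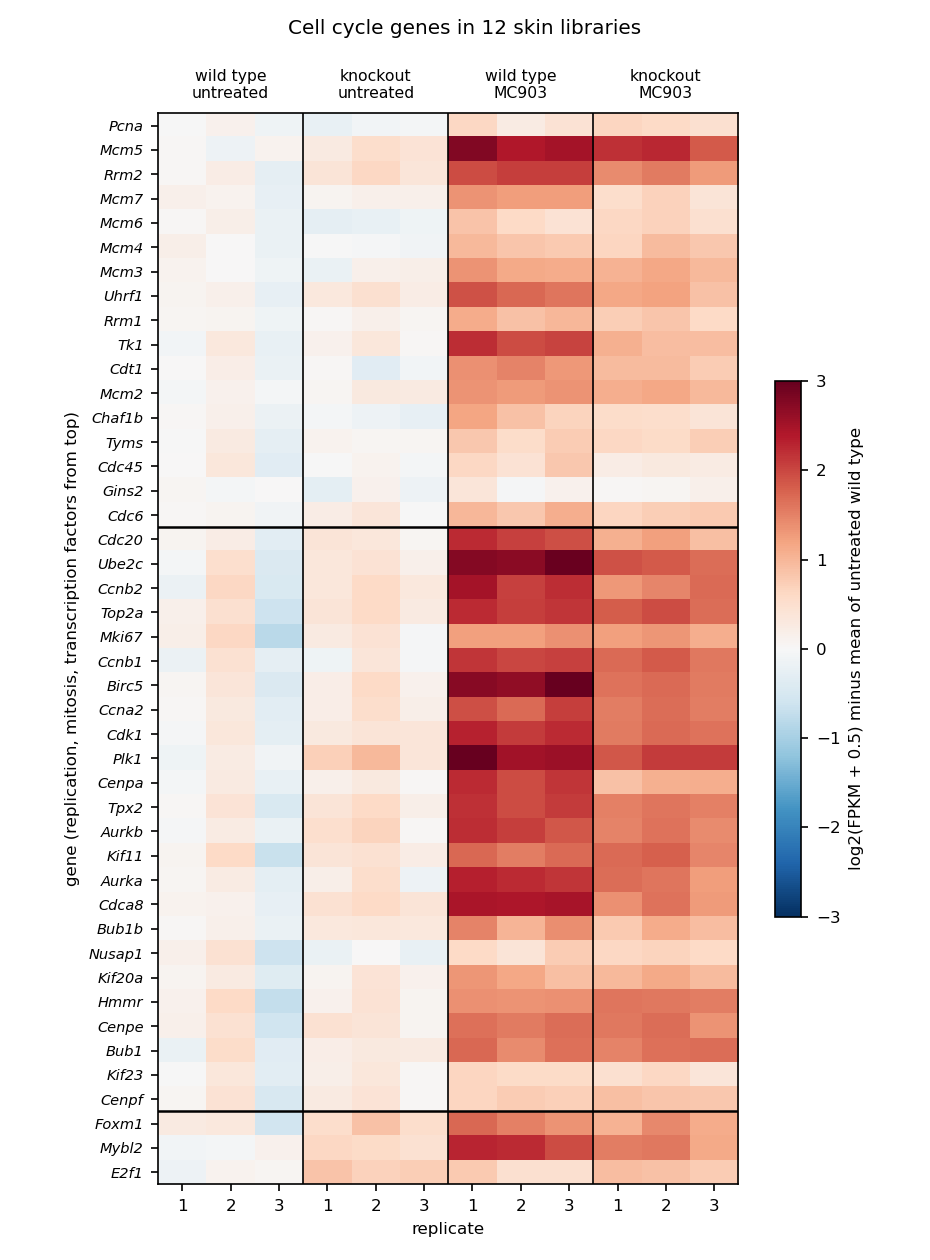
Log2(FPKM + 0.5) of each gene minus its mean in untreated wild type (colour, red higher) in the 12 libraries (columns, by group and replicate). Rows are 17 replication genes, 24 mitosis genes and 3 factors, each class ordered by its mean in treated wild type; Mcm5, Ube2c, Birc5 and Plk1 are darkest in treated wild type, and untreated wild type replicate 3 is blue in most mitosis genes.

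The same comparison in skin labelled knockout set other libraries against each other. The spread of each gene was estimated from all 12 libraries together, so its SE and p-values are not independent of those in wild type. Of the 44 members 39 rose, against 25% of all genes tested that rose, and the median was 0.87 against 0 over all genes. Of the replication genes 15 of 17 rose, 3 of them by at least 1 on the log2(FPKM + 0.5) scale and 4 at least 2-fold by the ratio of mean FPKM (median 0.75). Of the mitosis genes 23 of 24 rose, 15 and 17 of them by these measures (median 1.2). Of the factors Mybl2 rose (0.87 ± 0.14, limma adjusted p = 0.00056). Gins2 (0.18 ± 0.13), Cdc45 (0.24 ± 0.16), Kif23 (0.31 ± 0.15), Foxm1 (0.55 ± 0.22) and E2f1 (0.09 ± 0.11) did not pass. Groups did not overlap in 42 members, against 32% of all genes with every treated library higher. Under TPM the median of all genes moved to -0.18, the share of called genes that were higher from 52.1% to 33.5%, and 36 members rose.

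Mcm5 had the largest change among all members, from 4.05, 4.96 and 4.54 to 16.9, 17.8 and 13.1 (1.7 ± 0.14, limma adjusted p = 4e-06). Pcna went from 29.1, 32 and 32.9 to 53.2, 52 and 48 (0.7 ± 0.1, limma adjusted p = 3e-04). Mcm6 went from 8.04, 8.4 and 9 to 15.5, 16.3 and 14 and Mcm4 from 8.24, 8.14 and 7.76 to 13.2, 16.6 and 15. Treated levels of Pcna, Mcm6 and Mcm4 overlapped between the genotypes. Mcm7 rose by 0.41 ± 0.11, beside 1.28 ± 0.11 in wild type.

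Ccnb1 had the largest change among mitosis genes (1.64 ± 0.18, limma adjusted p = 4.5e-05), followed by Ube2c at 1.51 ± 0.19. Mki67 read 7.75, 8.82 and 6.18 untreated and 15.7, 16.8 and 14 after MC903 (0.99 ± 0.28, limma adjusted p = 0.012). Its treated libraries overlapped those of wild type. Cdc20 went from 8.82, 8.5 and 6.84 to 14.3, 16.2 and 12.7 (0.8 ± 0.15, limma adjusted p = 0.0014), and every treated library labelled knockout lay below every treated wild type one. Hmmr, Bub1 and Kif11 rose by 1.36 ± 0.25, 1.35 ± 0.2 and 1.29 ± 0.24. Top2a read 5.05, 5.91 and 4.58 untreated and 14.5, 15.9 and 13 after MC903.

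**Figure D3:**
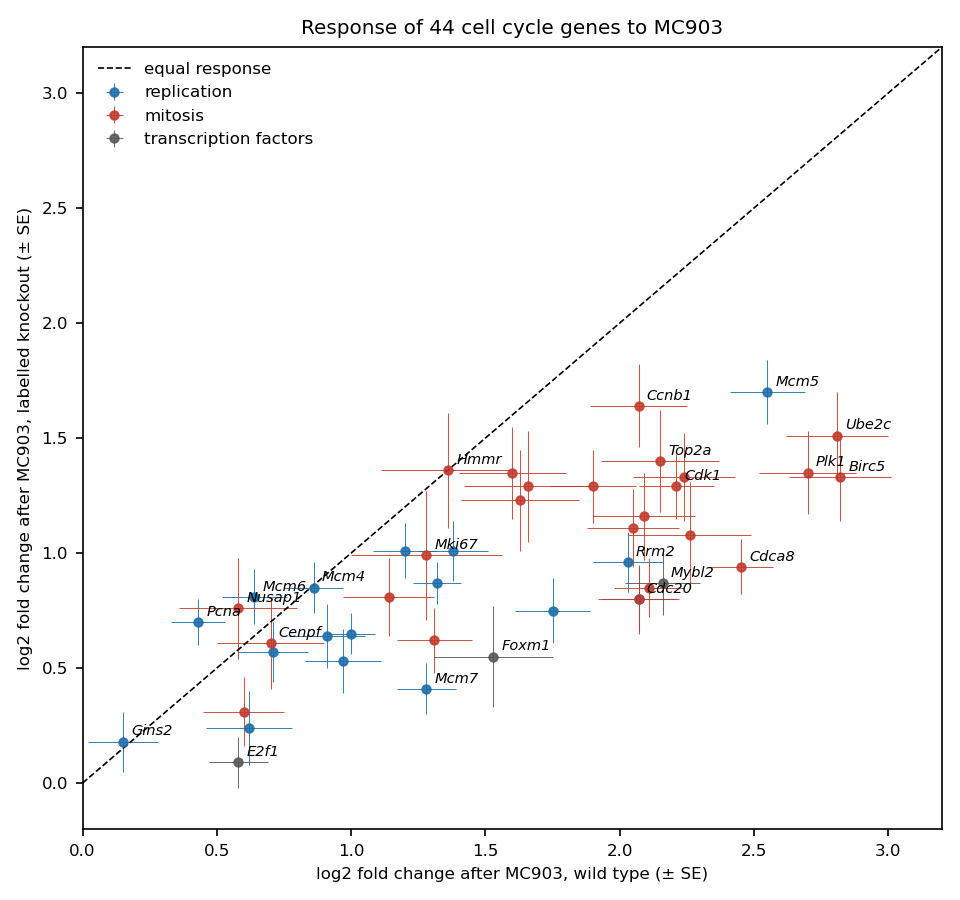
Log2 fold change after MC903 of the 44 genes in wild type (horizontal axis) and in skin labelled knockout (vertical axis), with SE bars, coloured by class. The dashed line marks equal response; Birc5 lies at 2.82 and 1.33, far below it, and Mcm4 at 0.86 and 0.85, on it.

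Whether a gene responded differently in the genotypes was tested with the interaction term. The response was smaller in skin labelled knockout for 22 of the 44 members, against 19.7% of all genes tested and 39.7% that differed either way, and larger for none in limma, against 20% of all genes (0 also at an unadjusted p below 0.05, and 0 with limma voom on the recovered reads). The median difference was -0.47, against -0.01 over all genes. By class 6 of 17 replication genes passed (median -0.38), 13 of 24 mitosis genes (median -0.72) and all 3 factors (median -0.99), and whether the classes differ was not tested. Under TPM the median of all genes moved to 0.25 and that of the members to -0.31, 13 members were lower and Pcna higher, and 72.2% of all called genes were higher, against 50.3% as deposited. With libraries scaled by total reads 18 members were lower and Pcna higher, and 61.9% of called genes were higher.

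Cdca8 had the largest difference. It read 1.33, 1.37 and 0.949 in untreated and 8.82, 8.61 and 9 in treated wild type, 7.24-fold higher. In skin labelled knockout it read 1.86, 2.1 and 1.72 and 3.88, 4.78 and 3.63, 2.16-fold higher (difference -1.51 ± 0.18, limma adjusted p = 0.00015). The libraries labelled knockout were all higher than wild type in untreated skin and all lower after MC903.

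Birc5 read 1.67, 2.16 and 1.05 and 13.4, 12.6 and 16.8 in untreated and treated wild type, and 1.88, 2.62 and 1.75 and 5.9, 6.28 and 5.57 in skin labelled knockout. The response was 8.79-fold and 2.84-fold (difference -1.5 ± 0.27, limma adjusted p = 0.0016). The untreated genotypes overlapped and the treated ones did not.

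Plk1 read 1.28, 1.8 and 1.33 and 15.4, 10.7 and 11.1 in wild type, and 2.7, 3.31 and 2 and 6.64, 7.88 and 7.94 in skin labelled knockout (difference -1.35 ± 0.25, limma adjusted p = 0.002). As for Cdca8, the genotypes were apart in both untreated and treated skin, in opposite directions.

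Ube2c read 2.59, 4.02 and 1.87 and 21.3, 20.4 and 24.4 in wild type, and 3.56, 3.83 and 3.06 and 11.6, 11 and 9.81 in skin labelled knockout (difference -1.3 ± 0.27, limma adjusted p = 0.0034). Its untreated genotypes overlapped. Cdc20 (-1.27 ± 0.22, limma adjusted p = 0.0012), Cenpa (-1.26 ± 0.19, limma adjusted p = 0.00052) and Ccnb2 (-1.19 ± 0.33, limma adjusted p = 0.016) followed. In skin labelled knockout Ccnb2 read 5.18, 6.33 and 5.12 untreated and 10.7, 12 and 14.1 after MC903, below every treated wild type library.

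The other mitosis genes that passed were Cdk1 (-0.93), Aurkb (-0.93), Tpx2 (-0.93), Aurka (-0.91), Bub1b (-0.69) and Ccna2 (-0.61 ± 0.22, limma adjusted p = 0.048). Ccna2 passed in 11 of 27 alternatives and was lost without untreated wild type replicate 3. All 3 passenger complex genes of the list, Birc5, Cdca8 and Aurkb, thus had a smaller response in skin labelled knockout.

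Among mitosis genes that did not pass, Hmmr read 1.21, 1.86 and 0.453 and 3.54, 3.49 and 3.58 in wild type, and 1.22, 1.6 and 1.15 and 4.25, 4.22 and 4.02 in skin labelled knockout (difference 0 ± 0.36). Cenpf read 0.915, 1.35 and 0.478 and 1.64, 1.81 and 1.73, and 1.14, 1.32 and 0.894 and 2.05, 1.93 and 1.89 (difference -0.09 ± 0.28). Both genes were lowest in untreated wild type replicate 3 and highest in treated skin labelled knockout. Nusap1, at 3.71, 4.36 and 3.64 and 6.87, 7.18 and 6.83 in skin labelled knockout, differed by 0.19 ± 0.31, and without untreated wild type replicate 3 it passed as a larger response there. Bub1 (-0.25 ± 0.28), Mki67 (-0.28 ± 0.39), Kif23 (-0.29 ± 0.22), Kif20a (-0.33 ± 0.24), Kif11 (-0.37 ± 0.35), Cenpe (-0.4 ± 0.32), Ccnb1 (-0.43 ± 0.26) and Top2a (-0.75 ± 0.31) did not pass either.

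Of the replication genes Tk1 differed most. It read 2.22, 2.6 and 2.04 untreated and 4.64, 4.17 and 4.19 after MC903 in skin labelled knockout, so its response was 1.9-fold beside 4.94-fold in wild type (difference -1.27 ± 0.2, limma adjusted p = 0.00065). Rrm2 (-1.06 ± 0.18, limma adjusted p = 0.0012), Uhrf1 (-1 ± 0.2, limma adjusted p = 0.0024), Mcm7 (-0.88 ± 0.16, limma adjusted p = 0.0017), Mcm5 (-0.85 ± 0.19, limma adjusted p = 0.0053) and Mcm2 (-0.46 ± 0.13, limma adjusted p = 0.018) also passed. Within the MCM ring 3 genes thus had a smaller response, while Mcm3 (-0.19 ± 0.16), Mcm4 (-0.01 ± 0.16) and Mcm6 (0.17 ± 0.17) did not pass.

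Pcna had the highest estimate (0.27 ± 0.15, limma adjusted p = 0.17). Gins2 read 1.57, 1.4 and 1.52 and 2.06, 1.46 and 1.69 in wild type and 1.14, 1.69 and 1.3 and 1.55, 1.58 and 1.7 in skin labelled knockout, with all groups overlapping (difference 0.03 ± 0.19). The remaining replication genes did not pass, namely Rrm1 (-0.35 ± 0.13), Tyms (-0.13 ± 0.19), Cdc6 (-0.44 ± 0.19), Cdc45 (-0.38 ± 0.22), Cdt1 (-0.38 ± 0.18) and Chaf1b (-0.27 ± 0.2).

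Among the factors Mybl2 read 1.15, 1.11 and 0.962 untreated and 2.63, 2.74 and 1.84 after MC903 in skin labelled knockout (difference -1.29 ± 0.2, limma adjusted p = 0.00074). Foxm1 read 2.11, 2.82 and 2.1 and 3.19, 4.37 and 3.41 (difference -0.99 ± 0.31, limma adjusted p = 0.027). E2f1 read 4.58, 4.06 and 4.17 and 4.81, 4.63 and 4.28 (difference -0.49 ± 0.16, limma adjusted p = 0.028). In skin labelled knockout E2f1 was thus about as high untreated as after MC903. Foxm1 passed in 19 and E2f1 in 18 of 27 alternatives, and both were lost without treated wild type replicate 1.

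**Figure D4:**
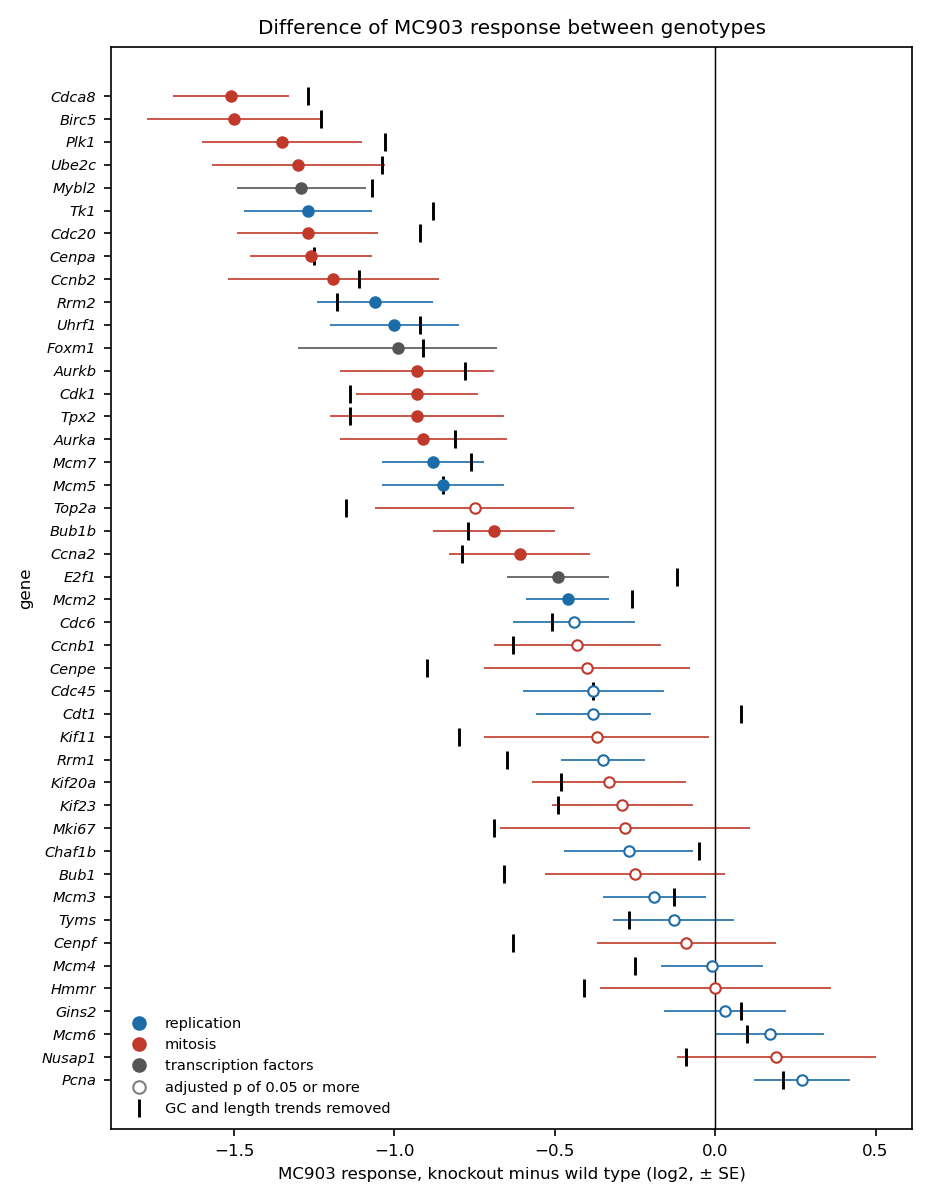
Difference of the MC903 response, skin labelled knockout minus wild type (log2, with SE bars), for each of the 44 genes, coloured by class. Filled points passed and open points did not, and black ticks give the value with GC and length trends removed; Cdca8 is lowest at -1.51 and Pcna highest at 0.27.

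Among the 37 members with a promoter, the 19 with a CHR element had a median difference of -0.75 and the 18 without one -0.42, beside median wild type responses of 1.66 and 1.29. The 8 with an E2F word had a median difference of -0.64 and the 29 without one -0.46. The CHR medians largely retell the split into classes. The E2F medians of the difference do not. Of the 8 members with an E2F word 7 are replication genes, whose median difference was -0.38, against -0.72 in mitosis genes. None of these medians carries a test.

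The difference of response varied with the base composition and length of the transcript, in the members and in other genes. Over 14342 protein-coding genes Spearman's rho with the GC share was -0.42 and with length 0.27, and over the 44 members it was -0.48 and 0.4, as descriptions across genes that share the same libraries. The 22 members that passed had a median GC share of 52.1% and a median length of 2466 bases, and the other 22 had 45.9% and 3410 bases. Birc5 (947 bases) and Ube2c (967 bases) have the shortest transcripts, and Cenpf (11130 bases) and Mki67 (10061 bases) the longest.

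With both trends removed across protein-coding genes, an alternative chosen after seeing the data, 29 members had a smaller response in skin labelled knockout, against 20.1% of genes. Of the 22 members called before, 20 were among them, and Mcm2 and E2f1 were not. Rrm1, Cdc6, Ccnb1, Top2a, Bub1, Cenpe, Cenpf, Kif11 and Kif23 were added. Mitosis genes then passed in 20 of 24 (median -0.81) and replication genes in 7 of 17 (median -0.27). Cdca8 stood at -1.27 ± 0.19, Birc5 at -1.23 ± 0.27, Ube2c at -1.04 ± 0.27 and Plk1 at -1.03 ± 0.25, each nearer to 0 than before. Long, AT-rich transcripts such as Top2a (-1.15 ± 0.25) and Cenpe (-0.9 ± 0.25) moved further from 0.

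**Figure D5:**
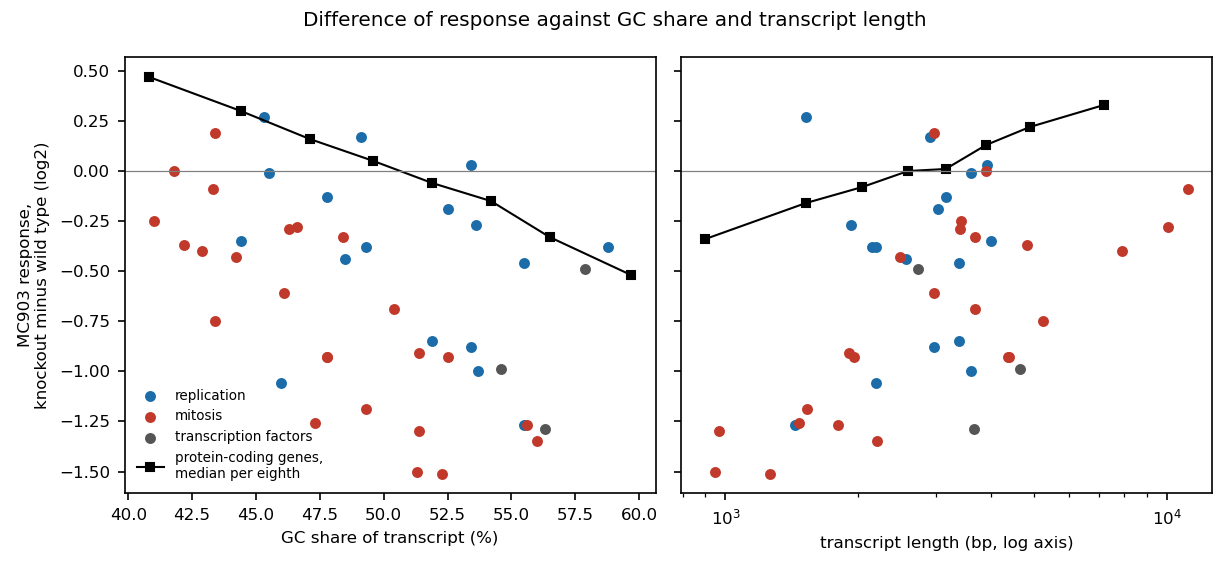
Difference of the MC903 response between genotypes (log2) against the GC share of the transcript (left) and its length on a log axis (right). Coloured points are the 44 genes by class, and black squares joined by a line are medians of eighths of 14342 protein-coding genes, which go from 0.47 to -0.52 with GC share and from -0.34 to 0.33 with length.

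Treated skin was also compared directly between genotypes, in libraries that the difference of response uses too. After MC903, 22 of 44 members were lower in skin labelled knockout, against 26.1% of all genes tested that were lower, and none was higher in limma (1 at an unadjusted p below 0.05, 0 with limma voom). The median was -0.35, against -0.03 over all genes. Those lower were 9 replication genes, 12 mitosis genes and Mybl2. In 26 members every library labelled knockout was below wild type, against 31.7% of all genes. Under TPM 8 members were lower and Pcna and E2f1 higher, the median of all genes moved to 0.24, and 73.7% of called genes were higher, against 49.8% as deposited. Without treated wild type replicate 1, 14 of the 22 passed and E2f1 was higher, and without treated knockout replicate 3, 15 passed.

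Birc5 stood at 0.415 times its wild type level (-1.19 ± 0.19, limma adjusted p = 0.00041), Tk1 at 0.439 (-1.1 ± 0.14, limma adjusted p = 8e-05) and Cenpa at 0.442 (-1.1 ± 0.13, limma adjusted p = 5.7e-05). Cdca8 (-1.03 ± 0.12), Cdc20 (-1 ± 0.15) and Ube2c (-0.99 ± 0.19) followed. Further lower were Ccnb2 (-0.77), Mcm7 (-0.75), Mybl2 (-0.73), Aurka (-0.73), Plk1 (-0.68), Uhrf1 (-0.66), Rrm2 (-0.61), Cdk1 (-0.58), Tpx2 (-0.54), Aurkb (-0.53), Cdt1 (-0.5), Mcm5 (-0.46), Chaf1b (-0.43) and Bub1b (-0.36). Mcm2 (-0.25 ± 0.09) and Rrm1 (-0.27 ± 0.09) passed as deposited and turned sign under TPM (0.03 and 0.01).

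Other markers of proliferation did not pass in treated skin. Mki67 differed by -0.06 ± 0.28, Kif11 by 0 ± 0.24, Bub1 by 0 ± 0.2 and Pcna by 0.15 ± 0.1. Hmmr (0.21 ± 0.25) and Cenpf (0.14 ± 0.2) were the members with every treated library labelled knockout above wild type, and neither passed. With GC and length trends removed Cenpf turned sign and passed as lower (-0.39, limma adjusted p = 0.03).

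In untreated skin few members differed between genotypes. Of the 44 members 5 were higher in skin labelled knockout, against 7.15% of all genes tested that were higher, and none was lower in limma, against 4.55% of all genes (0 also at an unadjusted p below 0.05 and with limma voom), with a median of 0.23 against 0.01 over all genes. In 9 members every library labelled knockout was above wild type, against 16.9% of all genes. They were E2f1 (0.76 ± 0.11, limma adjusted p = 0.0028), Cdca8 (0.49 ± 0.12, limma adjusted p = 0.031), Mybl2 (0.55 ± 0.14, limma adjusted p = 0.032), Plk1 (0.67 ± 0.18, limma adjusted p = 0.035) and Rrm2 (0.45 ± 0.13, limma adjusted p = 0.045), which passed, and Mcm5, Uhrf1, Bub1b and Foxm1, which did not. Rrm2 read 6.21, 7.32 and 6.04 in untreated skin labelled knockout.

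E2f1 passed in all 28 alternatives that refitted the values, and its change was below 2-fold. Without untreated knockout replicate 1, or without replicate 2, it was the 1 member that passed. Without untreated wild type replicate 3 the members' median was 0.05, E2f1, Cdca8 and Mybl2 were higher and Nusap1 was lower. Of all called genes 61.1% were higher as deposited, 49.7% with libraries scaled by total reads and 42.8% with GC and length trends removed.

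Genes of the same pathways outside the list were read from lists fixed together with the tests. Beside each count stand the shares of all genes tested that were called the same way. Of 47 further replication genes 32 rose and Orc3 fell in wild type after MC903, against 32.6% and 30.3% of all genes (median 0.52), and 31 rose in skin labelled knockout, against 25% (median 0.41). Gmnn (geminin, which blocks relicensing of origins) rose by 2.38 ± 0.18 and 1.56 ± 0.18, and Dbf4, the activator of the kinase that fires origins, by 1.87 ± 0.13 and 1.21 ± 0.13. In treated skin 17 were lower and 5 higher in skin labelled knockout, against 26.1% and 25.9%, and in untreated skin none passed in limma, with 4 higher and 11 lower at an unadjusted p below 0.05. In the difference of response 11 were lower, against 19.7% of all genes and so near the background, among them the DNA ligase Lig1 (-1.01 ± 0.18, limma adjusted p = 0.0014). The 3 that were higher, against 20% of all genes, encode subunits of the origin recognition complex, Orc2 (0.89 ± 0.13, limma adjusted p = 0.00046), Orc3 (0.7 ± 0.16) and Orc4 (0.83 ± 0.19).

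Of 50 further mitosis genes 47 rose in wild type, against 32.6% of all genes (median 1.48), and 44 rose while Pttg1 and Hjurp fell in skin labelled knockout, against 25% and 23% (median 0.77). Tacc3, a spindle protein, rose by 1.96 ± 0.11 and 0.99 ± 0.11, and Cks1b, a partner of cyclin-dependent kinases, by 1.71 ± 0.1 and 0.93 ± 0.1. In the difference of response 22 were lower, against 19.7% of all genes, and none higher in limma, 0 also at an unadjusted p below 0.05 (median -0.59), led by the spindle motor Kifc1 (-1.76 ± 0.22, limma adjusted p = 0.00024) and by Cdca3 (-1.51 ± 0.2, limma adjusted p = 3e-04). In treated skin 29 were lower in skin labelled knockout, against 26.1% of all genes, and Smc2 was higher. In untreated skin Kifc1 alone of the 50 was higher, against 7.15% of all genes (0.66 ± 0.16, limma adjusted p = 0.024).

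Of 20 cyclins, kinases and E2F factors of G1, 11 rose and 5 fell in wild type, against 32.6% and 30.3% of all genes. Among the same 20, 11 rose and 2 fell in skin labelled knockout, against 25% and 23%. The atypical E2F repressor E2f7 rose from 0.23 to 7.37 FPKM in wild type (3.45 ± 0.18, limma adjusted p = 7.7e-08) and by 2.98 ± 0.18 in skin labelled knockout, and E2f8 rose by 1.99 ± 0.13 and 1.9 ± 0.13. Ccnd2, a cyclin D, went the other way, from 23.3 to 6.03 in wild type (-1.85 ± 0.12, limma adjusted p = 2.2e-07). In skin labelled knockout it went from 21.6 to 17.4, and the responses differed (1.54 ± 0.16, limma adjusted p = 9.9e-05). In the difference 7 were lower and 4 higher, against 19.7% and 20% of all genes. In treated skin 6 were lower and 5 higher, against 26.1% and 25.9%, which is near the background. In untreated skin E2f6 and Tfdp2 were lower and E2f2 higher, against 4.55% and 7.15%.

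Of 20 tested cell cycle inhibitors and members of the RB family and the DREAM complex, 11 rose and 5 fell in wild type, against 32.6% and 30.3% of all genes. After MC903 5 rose and 3 fell in skin labelled knockout, against 25% and 23%, which is near or below the background. Rbl2 (p130), a pocket protein of resting cells, went from 10.9 to 4.79 in wild type (-1.12 ± 0.1, limma adjusted p = 3.4e-06) and from 10.8 to 8.84 in skin labelled knockout, where it did not pass (difference 0.85 ± 0.14, limma adjusted p = 0.0011). Pkmyt1, an inhibitory kinase of CDK1, rose from 2.48 to 6.87 in wild type and read 2.99 and 2.45 in skin labelled knockout (difference -1.54 ± 0.18, limma adjusted p = 0.00015). Cdkn1a (p21) was higher in untreated skin labelled knockout (0.59 ± 0.1, limma adjusted p = 0.0049), as was Btg2, and Lin52 was lower. In the difference of response 6 were lower and 4 higher, against 19.7% and 20% of all genes. In treated skin 5 were lower and 3 higher, against 26.1% and 25.9%, again near or below the background.

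Markers of cell types moved with the same comparisons. The 8 basal keratinocyte markers, none at 0 in any library, summed to 1740 to 2030 FPKM in untreated wild type, 2020 to 2310 in untreated skin labelled knockout, 12400 to 17300 in treated wild type and 3500 to 4880 in treated skin labelled knockout. Krt14 carried the treated sums (mean 11900 FPKM in wild type and 3430 in skin labelled knockout). In untreated skin it averaged 846 and 1100, beside Krt5 at 576 and 695. The other markers did not all follow Krt14. After MC903 6 of the 8 rose in wild type while Krt15 and Dst fell. In skin labelled knockout Krt14, Itga6 and Trp63 rose, Krt15 (-3.03 ± 0.2), Col17a1 and Dst fell, and the median was -0.07. In treated skin 7 of the 8 were lower in skin labelled knockout (median -1.16). The 8 leukocyte markers, none at 0, summed in the same order to 102 to 119, 136 to 137, 131 to 152 and 375 to 493, and all 8 were higher in treated skin labelled knockout (median 1.58). The 6 fibroblast markers, none at 0, summed to 1100 to 1990, 4430 to 5130, 519 to 645 and 1680 to 2160, and all 6 were higher there. Of the others in that comparison 4 of 4 endothelial and 2 of 4 adipocyte markers were higher, 4 of 4 muscle and 4 of 5 epidermal state markers lower, and of 5 tested T cell markers 2 were higher and 1 lower. The part of these shifts in the members' values was not tested.

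Of the hair matrix and shaft markers 15 were tested and none passed between genotypes in limma, treated or untreated (at an unadjusted p below 0.05, 0 in treated skin and 6 higher in untreated skin labelled knockout). Their sum was 4.2 FPKM in untreated wild type replicate 3, where 6 of 16 were at 0 (Krt31, Krt34, Krt71, Krt72, Krt81 and Krt86), against 80.1 and 232 in replicates 1 and 2, 193 to 407 in untreated skin labelled knockout, and 237 to 450 and 216 to 330 in the treated groups. Tchh carried the treated sums (276 FPKM in wild type and 248 in skin labelled knockout). After MC903 in skin labelled knockout 11 of the 15 fell, Hoxc13 and Tchh rose, and Msx2 and Padi3 did not pass (median -2.98). In wild type none fell in limma, 1 being lower at an unadjusted p below 0.05, and Hoxc13, Padi3 and Tchh rose (median -0.93). Untreated wild type replicate 3 also had the lowest mitosis sum. The part of the hair matrix in the members' values was not tested.

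The counting is not stated to use strand, so reads from genes that overlap on opposite strands cannot be told apart. Cdca8 shares 2264 bases with 9930104L06Rik (at most 4.11 FPKM), Gins2 2758 with Gse1 (5.61) and Kif20a 2315 with Cdc23 (4.48). Ccna2 shares 863 with Exosc9 (7.32), Cdc20 53 with Elovl1 (83) and Cdc45 209 with Ufd1 (20.4). Mcm7 shares 421 with Ap4m1 (3.54) and 64 with Cops6 (41.6). Ube2c shares 1662 with Tnnc2, which is listed at 0 in every library. Processed copies of Pcna, Ccnb1, Ccnb2 and Tyms reached at most 0.761, 0.728, 1.21 and 0.0587 FPKM, and how reads were split with them is uncertain.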

How the data were processed

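Gene-level FPKM values of 12 skin libraries were used as the authors deposited them. Per the submitters' processing notes the build was mm10 and the counter featureCounts; for the aligner, annotation release and FPKM tool the sources used here give no name. FPKM times gene length gave whole reads for 100% of values within a tolerance of 0.01, and these recovered reads were used for depth and for 1 alternative. Not analysed here were 3 samples of dorsal root ganglion.

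Genes with FPKM of at least 0.5 in at least 3 libraries were fitted with limma 3.58.1 (R 4.3.3) on log2(FPKM + 0.5) over the 4 groups, with eBayes and a mean trend and 8 residual degrees of freedom. Tests were two-sided, with Benjamini-Hochberg adjustment over all genes within a contrast. The fit was tested on simulated data. Promoters were searched and figures drawn with Python 3.11.15. Members, lists and tests were chosen with earlier results of these data known.

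Values in every library were given for the 3 members of each class with the highest mean FPKM, the 4 with the largest and the 4 with the smallest change of response, and those passing between untreated genotypes. Mcm5, Tk1 and Top2a were added, and Pcna, Mcm6 and Nusap1 given in full for their high estimates, after their values were seen. From other lists up to 4 genes per comparison were named by adjusted p, and Orc3, Orc4 and others that complete small counts were named after their values were seen. In all 29 alternatives were run. Those limited to protein-coding genes, and those removing GC or length trends, were chosen after seeing the data.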

Additional observations from a re-analysis of the deposited data

Results flagged for a closer look

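The MC903 response differed between the genotypes, by the interaction term in limma, for 22 of the 44 genes. In each it was smaller in skin labelled knockout. Of all genes tested 39.7% differed either way and 19.7% had a smaller response there. Under TPM 13 members were lower and Pcna higher. Values are log2, skin labelled knockout minus wild type. Of the replication genes the difference was -1.27 for Tk1, -1.06 for Rrm2, -1 for Uhrf1, -0.88 for Mcm7, -0.85 for Mcm5 and -0.46 for Mcm2. Of the mitosis genes it was -1.51 for Cdca8, -1.5 for Birc5, -1.35 for Plk1, -1.3 for Ube2c, -1.27 for Cdc20, -1.26 for Cenpa and -1.19 for Ccnb2. It was -0.93 for Cdk1, for Aurkb and for Tpx2, -0.91 for Aurka, -0.69 for Bub1b and -0.61 for Ccna2. Of the factors it was -1.29 for Mybl2, -0.99 for Foxm1 and -0.49 for E2f1.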

How the results depend on the processing

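Across 29 alternatives the members that rose after MC903 numbered 35 to 43 in wild type and 36 to 41 in skin labelled knockout wherever no minimum change was asked for. Asking for a 2-fold change on the log2(FPKM + 0.5) scale left 18 in skin labelled knockout, 0 between untreated genotypes, 5 between treated genotypes and 11 in the difference of response. Scaling to TPM left 10 between treated genotypes (2 higher, 8 lower) and 14 in the difference (1 higher, 13 lower). It turned the sign of Pcna in wild type (-0.04) and of Mcm2 (0.03) and Rrm1 (0.01) between treated genotypes. Between untreated genotypes the 5 calls became 1 without a filter or with only the groups compared. With library weights they became 17 (16 higher, 1 lower). In that fit 17% of all genes tested were called lower and 54.3% of called genes were higher. The weights of untreated wild type replicates 1, 2 and 3 were 4.61, 0.455 and 0.218. The 5 calls became 2 with the GC trend removed, 3 with the length trend removed and 2 with both removed. With both removed Cenpf turned sign between treated genotypes (-0.39). Leaving out 1 library at a time gave 42 to 43 members in wild type, 37 to 40 in skin labelled knockout, 1 to 8 between untreated genotypes, 15 to 24 between treated genotypes and 19 to 26 in the difference.

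The replication median minus the mitosis median was -1.06 in the wild type response, -0.92 with a pseudocount of 0.1, -0.91 under TPM or with the GC trend removed, -0.78 with the length trend removed, -0.79 with both removed, and -1.14 to -0.91 without 1 library. In the difference of response it was 0.34, and 0.56, 0.49 and 0.53 with the GC, length and both trends removed. Without 1 library it was 0.25 to 0.4, lowest without untreated wild type replicate 3. CHR elements before the start stood in 8 mitosis promoters, and CCAAT on the gene's strand in 6 replication and 11 mitosis promoters. The causes of these changes were not tested.

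With replicate number as a block, 8 members passed between untreated genotypes, and 43, 40, 21 and 22 in wild type, skin labelled knockout, treated genotypes and the difference. The labels do not tie equal numbers together, and 3 of 18 same-number pairs had a correlation over 0.1 (-0.13 to 0.169), against 5 of 36 other pairs.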
